A study of Mus musculus with 12 samples.

Results

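The genes examined here were 10 genes of ERK signalling output, namely the phosphatase genes Dusp4, Dusp5 and Dusp6, the Sprouty genes Spry1, Spry2 and Spry4, the Sprouty-related genes Spred1 and Spred2, and the transcription factor genes Etv4 and Etv5. They were chosen by name as a set of MAPK feedback and output genes, and all 10 were found among the 22630 genes measured. RNA sequencing had been performed on 12 subcutaneous tumors, with 4 tumors per group (no-dox, plus-dox, off-dox). All 12 grew from a single mouse pancreatic cancer line, KCip53-1, in immunodeficient NSG mice aged 8 to 10 weeks at use. The line came from a mouse whose alleles included Ptf1a-Cre, TREp53R270H and R26rtTa/rtTa, in which Cre in the pancreatic epithelium switches on rtTa, and every group shared this background. Doxycycline (dox) then turns on mutant p53R270H through rtTa, and the line had been sorted for dsRed, the reporter expressed with it. No-dox mice received dox for 0 days, and plus-dox mice drank 0.2 g/l dox for 36 days. Mice of the off-dox group had dox for 33 days, followed by 3 days without it. Dox was given in a 5% sucrose solution, and the paper does not say whether mice without dox drank sucrose. RNA came from bulk tumors, so host cells contributed to every value, and a smaller share of a cell type could not be told apart from less RNA per cell of that type. Mice were implanted with a pair of tumors each. Which of the sequenced tumors shared a mouse is not given, so p-values that take tumors as independent may be too small.

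In the Ras pathway, growth factor receptors act through Ras proteins on a chain of kinases in which Raf activates MEK and MEK activates ERK. Active ERK induces genes that restrain it. The nuclear phosphatases Dusp4 and Dusp5 and the cytoplasmic phosphatase Dusp6 remove the activating phosphates from ERK, whereas Sprouty and Spred proteins act further up, between the receptors and Raf. Etv4 and Etv5, ETS transcription factors of the PEA3 group, are induced by the pathway and carry part of its transcriptional output, which is why transcripts of all these genes are commonly read as a measure of ERK signalling. In pancreatic cancer the pathway is commonly active.

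The switch itself could not be checked from its gene. Trp53, the gene that the transgene encodes in mutant form, ranged from 40.1 to 57.4 RPKM over the 12 tumors, and its log2 fold change was 0.04 in plus-dox over no-dox tumors (edgeR adjusted p = 0.89), so that in these data the groups rest on the sample labels. The paper stained KCip53 tumors of the same kinds of group for dsRed. It reported no staining in no-dox tumors, uneven staining in plus-dox tumors and fewer positive cells in off-dox tumors. In cultured KCip53 lines the paper also reported p53 protein levels that changed with dox, by Western blot. By PCR and sequencing it found only mutant p53 DNA in KCip53 lines, with the wild-type sequence lost. Counted reads per tumor ran from 19845923 to 33137609, and 88.4% to 89.4% of mapped reads were counted on genes in no-dox tumors against 81.1% to 87.1% in the other 8. The keratin gene Krt8 was present in every tumor at 318 to 972 RPKM. Plus-dox tumor 2 and off-dox tumor 4 stood apart within their groups. Counts were compared between pairs of tumors of a group by chi-square per degree of freedom. It was 136 to 178 for plus-dox tumor 2, against 21.9 to 47.7 among the other plus-dox tumors. For off-dox tumor 4 it was 87.3 to 149, against 45.8 to 61.8 among the other off-dox tumors. No-dox pairs had 41.9 to 116, and tumors of different groups were not compared this way. Plus-dox tumor 2 and off-dox tumor 4 also had the lowest mean log2 CPM of epithelial markers of the 12. Values that rest on these tumors are given with and without them. By summed RPKM of the markers, off-dox tumor 3 was lowest at 1089, against 1365 in plus-dox tumor 2 and 1571 in off-dox tumor 4.

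No difference between the groups was called for any of the 10 genes, whose expression varied from tumor to tumor within each group. In edgeR's quasi-likelihood test, 0 of 10 genes were called for plus-dox against no-dox tumors, 0 of 10 for off-dox against no-dox tumors and 0 of 10 for off-dox against plus-dox tumors. A call needed a Benjamini-Hochberg adjusted p under 0.1 over all 17561 genes tested and a change over 1.5-fold. The shares called over all genes were 0%, 1.34% and 0%, respectively. Of the 30 tests on members, 0 had an unadjusted p under 0.05 in edgeR, and the lowest adjusted p was 0.33, for Etv4 between off-dox and no-dox tumors. DESeq2 also called 0 of 10 in each comparison, against 0.729%, 3.5% and 0.0342% of all genes, with 1 unadjusted p under 0.05, and gave no p for Dusp5.

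**Figure D1:**
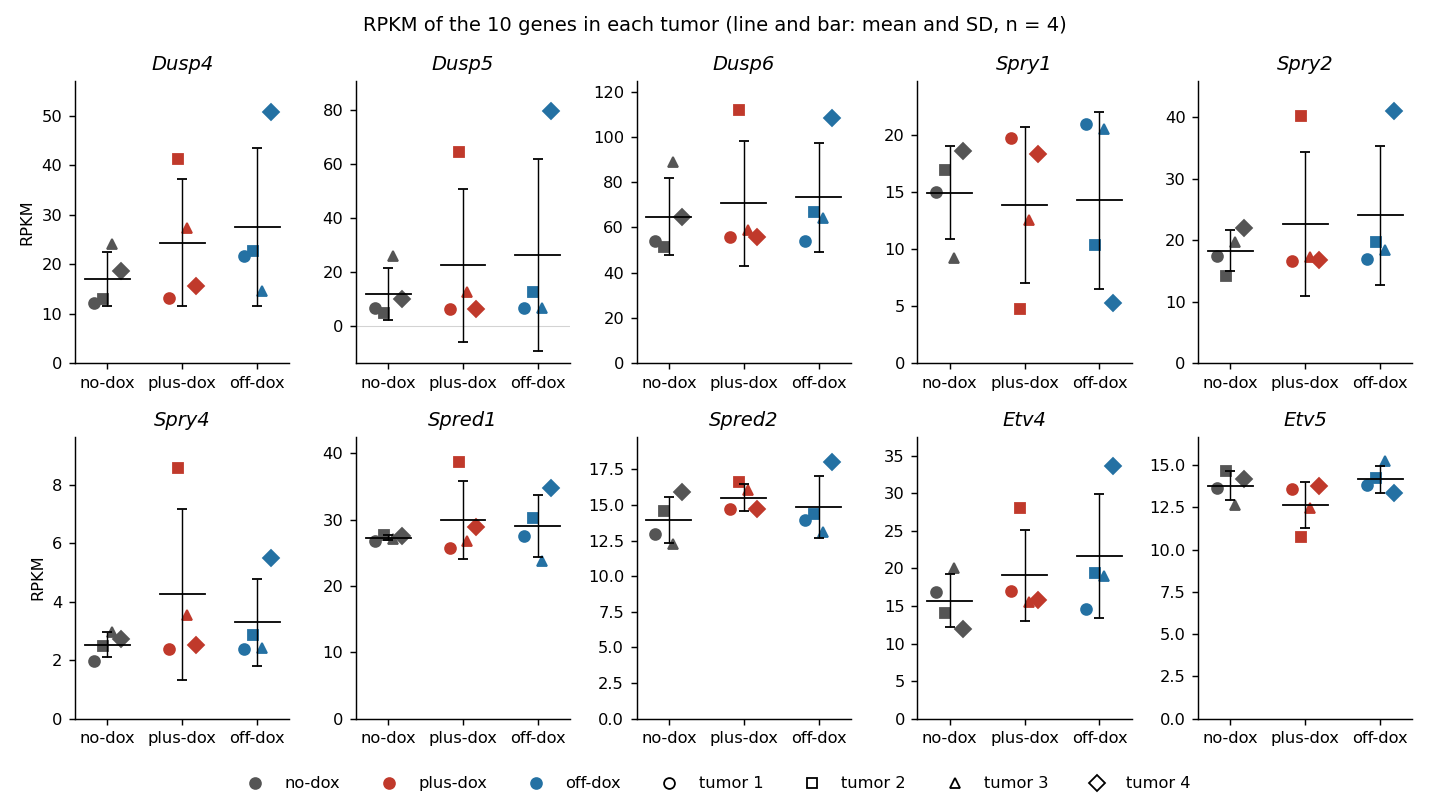
RPKM of each gene (vertical axes from 0, except where the SD bar of Dusp5 reaches below it) by group, with symbols for the tumor number and a line and bar for mean and SD (n = 4). Plus-dox tumor 2 and off-dox tumor 4 lie above the other 10 tumors for 8 of the 10 genes and below them for Spry1, and the groups overlap.

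Among the phosphatases, Dusp5 varied most. Dusp5 (chromosome 19 of mm9, 53603808 to 53615812, plus strand) was at 6.84, 5.05, 26.1 and 10.2 RPKM in no-dox tumors 1 to 4, at 6.40, 64.6, 12.7 and 6.38 in plus-dox tumors and at 6.60, 12.6, 6.79 and 79.6 in off-dox tumors. The highest tumor exceeded the lowest 15.8-fold, every group held both low and high tumors, and the 3 groups overlapped. The mean ± SD was 12.0 ± 9.6 RPKM without dox, 22.5 ± 28.2 with dox and 26.4 ± 35.6 after dox withdrawal (n = 4 each). The log2 fold change of Dusp5 was 0.91 in plus-dox over no-dox tumors (95% interval from 0.427-fold to 8.23-fold, edgeR adjusted p = 0.67), an interval that holds changes past 2-fold in both directions. Without plus-dox tumor 2 and off-dox tumor 4 the log2 fold change turned to −0.50 (edgeR adjusted p = 0.69). That fit kept no-dox tumor 3, the highest of its group at 26.1 RPKM, and leaving out this tumor alone gave 1.65.

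Dusp4 (chromosome 8, 35870664 to 35882948) was at 12.2, 13.02, 24.0 and 18.6 RPKM in no-dox tumors, 13.2, 41.3, 27.2 and 15.6 in plus-dox tumors and 21.7, 22.7, 14.6 and 50.9 in off-dox tumors. Its means of 17.0 ± 5.5, 24.3 ± 12.8 and 27.5 ± 15.99 (SD, n = 4) differed by less than the spread within the dox-treated groups, with an edgeR adjusted p of 0.58 for plus-dox and 0.37 for off-dox tumors, each against no-dox tumors. Dusp6 (chromosome 10, 98725865 to 98730123), a classical readout of ERK activity, had the highest level of the 10 genes. It was at 54.1, 51.5, 88.7 and 64.5 RPKM in no-dox tumors, at 55.6, 112, 59.0 and 55.8 in plus-dox tumors and at 53.8, 66.8, 63.9 and 109 in off-dox tumors. Apart from the highest tumor of each group, the values lay between 51.5 and 66.8 RPKM, and the log2 fold change of 0.13 in plus-dox over no-dox tumors had a 95% interval from 0.696-fold to 1.72-fold. Without plus-dox tumor 2 and off-dox tumor 4 it turned to −0.19, whereas leaving out no-dox tumor 3 alone, at 88.7 RPKM, gave 0.35.

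The Sprouty genes did not move as a family. Spry2, an inhibitor of growth factor signalling to Ras, was at 14.1 to 21.9 RPKM in 10 tumors and at 40.2 in plus-dox tumor 2 and 41.0 in off-dox tumor 4. Spry4 was the lowest of the 10 genes, at 1.96, 2.47, 2.97 and 2.73 RPKM in no-dox tumors, 2.37, 8.58, 3.55 and 2.52 in plus-dox tumors and 2.37, 2.87, 2.42 and 5.51 in off-dox tumors. Its log2 fold change was 0.76 in plus-dox over no-dox tumors (edgeR adjusted p = 0.43), and 0.16 without plus-dox tumor 2 and off-dox tumor 4 (edgeR adjusted p = 0.75).

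Over 12 tumors Spry1 went the opposite way from Spry2 (Pearson r of log2 CPM −0.86) and Spry4 (−0.88). Without plus-dox tumor 2 and off-dox tumor 4, r was only −0.31 with Spry2 and −0.48 with Spry4. Spry1 was at 15.1, 16.9, 9.21 and 18.6 RPKM in no-dox tumors, 19.8, 4.78, 12.5 and 18.4 in plus-dox tumors and 21.0, 10.3, 20.6 and 5.29 in off-dox tumors. Plus-dox tumor 2 and off-dox tumor 4 were its 2 lowest tumors, followed by no-dox tumor 3, the tumor with the third highest Dusp5. The ratio of Spry2 to Spry1 RPKM within a tumor was 0.81 to 2.13 in 10 tumors, 8.42 in plus-dox tumor 2 and 7.74 in off-dox tumor 4. Between groups Spry1 showed no called change, with log2 fold changes over no-dox tumors of −0.11 with dox and −0.05 after its withdrawal. Without plus-dox tumor 2 and off-dox tumor 4 both turned, to 0.17 and 0.23.

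Among the members, Spred1 and Spred2 were the steadier inhibitors. Spred3, a gene of the same family outside the members, was not steady. It was at 12.0 RPKM in plus-dox tumor 2 and 14.3 in off-dox tumor 4, against 2.80 to 7.71 in the others. Spred1, which holds neurofibromin at the membrane, was at 26.8 to 27.7 RPKM in the 4 no-dox tumors and reached 38.6 in plus-dox tumor 2 and 34.8 in off-dox tumor 4. Spred2 stayed between 12.3 and 18.04 RPKM in all 12 tumors. For Spred2 the 95% interval between plus-dox and no-dox tumors ran from 0.917-fold to 1.37-fold, so that a change of 1.5-fold lay outside it.

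The ETS factor genes Etv4 and Etv5 parted from each other. Etv4 (chromosome 11, 101631056 to 101646624) was at 16.8, 14.01, 20.1 and 12.0 RPKM in no-dox tumors, 17.0, 28.1, 15.5 and 15.8 in plus-dox tumors and 14.6, 19.5, 18.9 and 33.7 in off-dox tumors. Etv5 (chromosome 16, 22381386 to 22439643) was at 13.7, 14.7, 12.7 and 14.2 RPKM in no-dox tumors, 13.6, 10.8, 12.5 and 13.8 in plus-dox tumors and 13.9, 14.3, 15.2 and 13.3 in off-dox tumors. Plus-dox tumor 2 thus held the lowest Etv5 value and the second highest Etv4 value, and the ratio of Etv4 to Etv5 was 0.85 to 1.58 in 10 tumors against 2.61 in plus-dox tumor 2 and 2.53 in off-dox tumor 4.

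Etv5 was also the gene with the narrowest intervals. Its 95% interval ran from 0.808-fold to 1.05-fold for plus-dox and from 0.919-fold to 1.20-fold for off-dox tumors, each against no-dox tumors. On log2 CPM its 4 off-dox tumors lay above its 4 plus-dox tumors, a difference of 0.19 in the mean (p = 0.029 by an exact two-sided permutation test, the lowest value open to groups of 4). This was the only one of 30 such tests with a p under 0.05 and the only one without overlap, and 1.34% of 14548 genes did not overlap in the same comparison. On log2(RPKM + 0.1) the groups overlapped and the exact p was 0.11, and the edgeR p adjusted over all genes was 1.

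**Figure D2:**
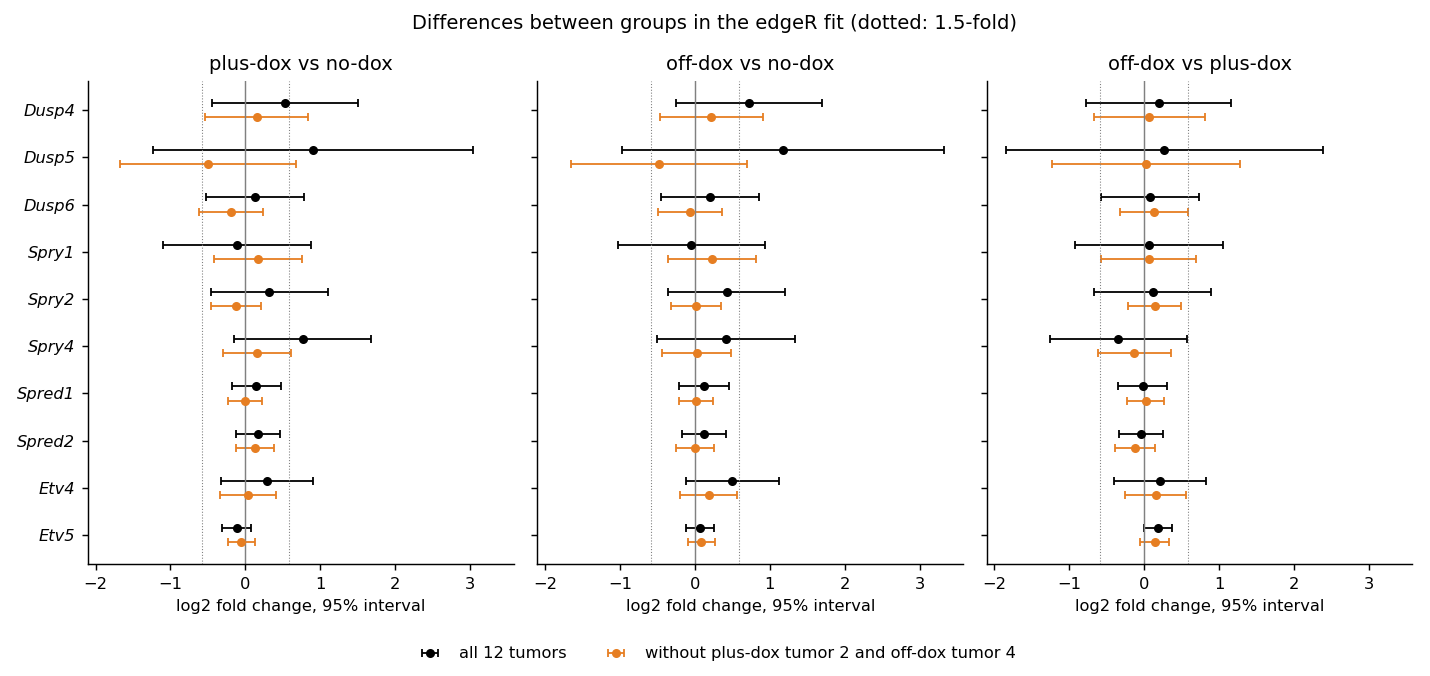
Log2 fold change (horizontal axes) of each gene in the edgeR fit for the 3 pairs of groups, with 95% intervals, from all 12 tumors and without plus-dox tumor 2 and off-dox tumor 4. Every interval includes 0, those of Dusp5 are the widest and those of Etv5 are the narrowest of the fit of 12 tumors.

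The spread of the genes over the tumors was uneven. The SD of log2 CPM over 12 tumors was 1.37 for Dusp5, above that of 97.1% of 14548 expressed genes, 0.72 for Spry1, 0.70 for Dusp4 and 0.63 for Spry4. It was 0.21 for Spred1, 0.19 for Spred2 and 0.12 for Etv5, which was above that of 5.77% of genes only. The median gene had an SD of 0.27, and 7 of the 10 genes were above it. Without plus-dox tumor 2 and off-dox tumor 4 the SD fell to 0.74 for Dusp5, 0.41 for Spry1, 0.46 for Dusp4, 0.27 for Spry4 and 0.20 for Spry2, which had been 0.52. Over these 10 tumors 5 of the 10 genes were above the median of 0.24. Group membership accounted for 3.85% of the variance of Dusp5, 3.66% of that of Dusp6 and 2.27% of that of Spry1, whereas the median over all genes was 22.4%. Etv5, at 44.7%, was the only member with a share above that median.

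Levels were compared between genes as RPKM, which is per length. The order of the means over 12 tumors was Dusp6 (69.5), Spred1 (28.8), Dusp4 (22.9), Spry2 (21.7), Dusp5 (20.3), Etv4 (18.8), Spred2 (14.8), Spry1 (14.4), Etv5 (13.5) and Spry4 (3.36). Dusp6 was above Spred1 in 12 of 12 tumors and Etv5 above Spry4 in 12 of 12 (exact sign-flip tests over the tumors, adjusted p = 0.0022 each for 9 neighbouring pairs). Not separated were Dusp4 and Spry2 (adjusted exact p = 0.84), Dusp5 and Etv4 (0.13), Spred2 and Spry1 (0.61), and Spry1 and Etv5 (0.84). Dusp5 stood above Etv4 by its mean although Etv4 was higher in 9 of 12 tumors. Without plus-dox tumor 2 and off-dox tumor 4 the median of Dusp5 was 6.82 RPKM and that of Etv4 16.3 RPKM.

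In plus-dox tumor 2 and off-dox tumor 4, feedback genes of each family were high at once. These were the 2 highest tumors for 8 of the 10 genes, all but Spry1 and Etv5, and the 2 lowest for Spry1. Over 14548 expressed genes the same 2 tumors were the 2 highest for 9.34% and the 2 lowest for 15.6%. The shares are a description, since both tumors were singled out from profiles that include these genes. The tumors belong to the plus-dox and the off-dox group, which were both given dox, and neither is a no-dox tumor. A link of the pattern with dox was not tested. Within the phosphatases, Dusp6 was 3.4 to 10.2 times Dusp5 in the other 10 tumors but 1.74 times in plus-dox tumor 2 and 1.36 times in off-dox tumor 4.

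Related genes of the pathway were read from lists set by name. Among other members of the same families, 6 of 10 had plus-dox tumor 2 and off-dox tumor 4 as their 2 highest tumors. Dusp1, an immediate early phosphatase, was at 38.2 and 39.8 RPKM in them against 12.2 to 21.1 in the other 10, and Dusp7, a cytoplasmic ERK phosphatase, at 15.7 and 15.98 against 6.43 to 9.33. Of 11 other ERK output genes, 3 showed the pattern, namely Ccnd1, Epha2 and Fosl1. Ccnd1, which encodes cyclin D1, was at 185 and 187 RPKM against 82.9 to 130. Junb, an AP-1 subunit and the most abundant gene of that list, was at 125 and 141 RPKM in the 2 tumors, within its range of 87.0 to 204 in the others. The immediate early genes Fos, Egr1, Ier2, Ier3 and Junb had their highest value in no-dox tumor 4.

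**Figure D3:**
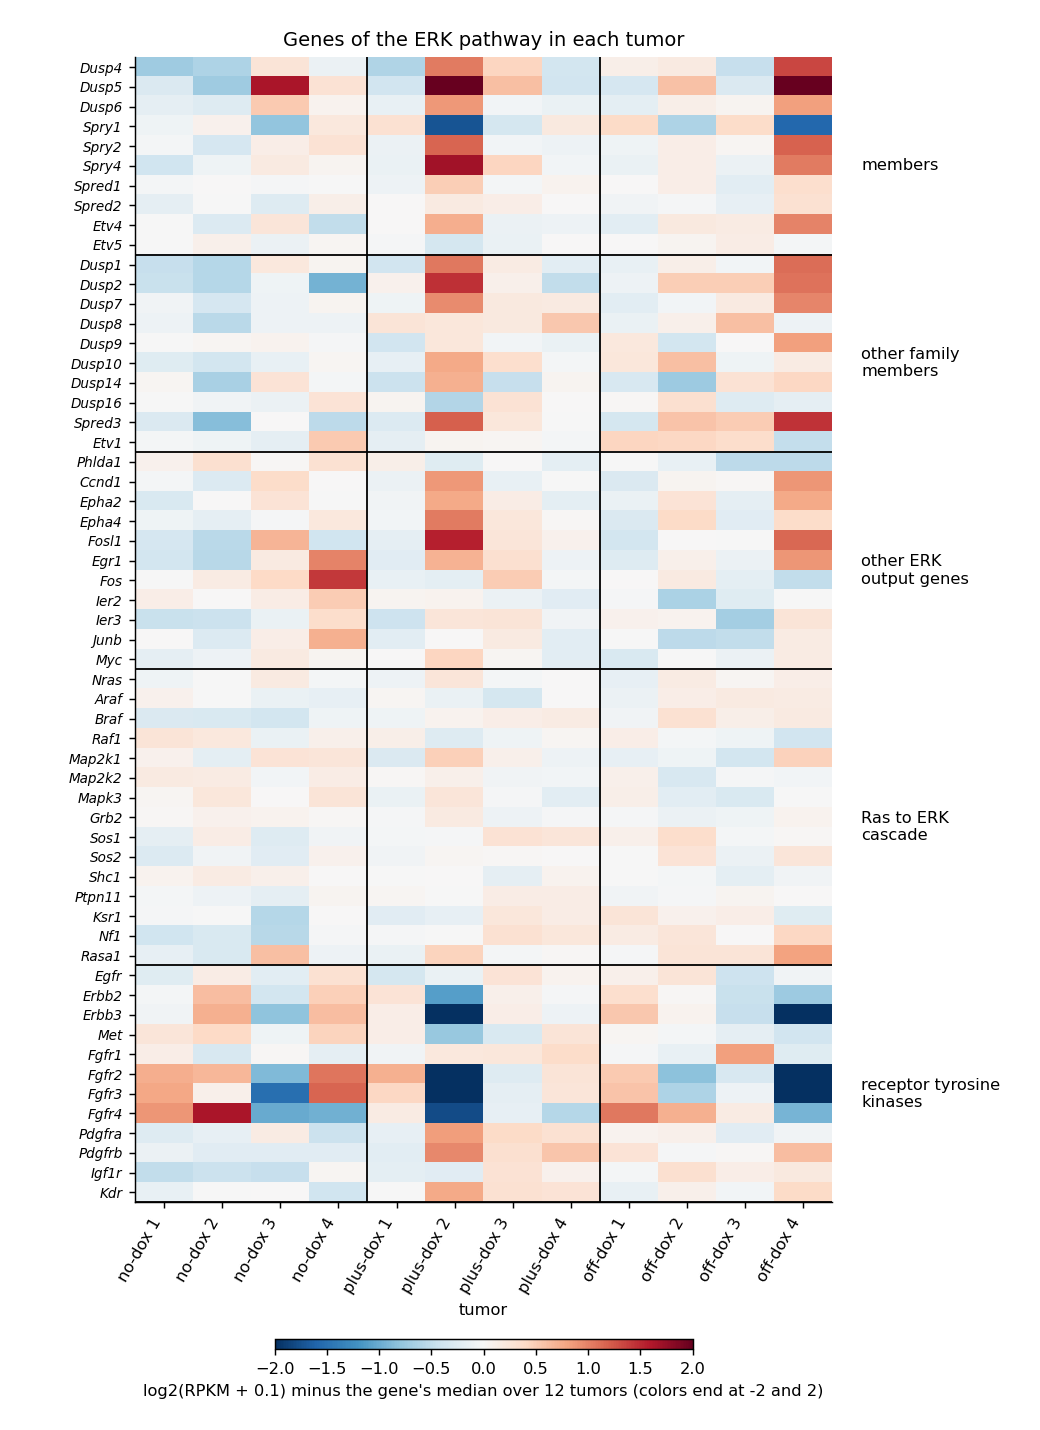
Log2(RPKM + 0.1) of each gene minus its median over 12 tumors (color), with genes in rows by list and tumors in columns by group. The columns of plus-dox tumor 2 and off-dox tumor 4 are red for 8 of the 10 members and blue for Spry1, and among the receptors they are blue for Erbb2, Erbb3, Met, Fgfr2 and Fgfr3.

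Upstream of the feedback genes, receptor genes moved in both directions in these tumors. Of 15 genes of the Ras to ERK cascade, 1 had the 2 tumors as its highest, namely Map2k1. Mapk3, which encodes ERK1, was at 129 and 109 RPKM in them against 88.0 to 131 in the others, and Map2k1, which encodes MEK1, at 76.8 and 76.1 against 42.5 to 66.8. Of 12 receptor tyrosine kinase genes, 2 had the 2 tumors as their highest and 5 as their lowest. Met, the hepatocyte growth factor receptor, was at 12.6 and 16.4 RPKM against 17.2 to 29.1, and Fgfr1 at 25.002 and 18.2 against 17.3 to 38.4. The receptor genes Erbb3 and Fgfr2, named after their values had been seen, were at 0.77 and 2.54 RPKM and at 1.00 and 1.33 RPKM in the 2 tumors, against 7.59 to 21.9 and 5.03 to 19.8. Of these 4 lists, 0 genes were called between any pair of groups in edgeR, and 2 of 10, 0 of 11, 2 of 15 and 3 of 12 genes, in the order above, had an unadjusted p under 0.05 between plus-dox and no-dox tumors, against 13.7% of all genes. Between off-dox and no-dox tumors the counts were 2, 3, 2 and 1, against 20.4% of all genes, with 0, 0, 1 and 0 for off-dox against plus-dox tumors, against 3.06%. DESeq2 called 2 genes of these lists, Dusp2 and Spred3, both between off-dox and no-dox tumors.

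The other 9 genes were also read against Dusp6, the most abundant of them, chosen after the values had been seen. Over 12 tumors, the Pearson correlation with Dusp6 on log2 CPM was 0.98 for Dusp5 (permutation p = 3e-05, Spearman 0.90, p = 0.00025), 0.93 for Spry2 (permutation p = 7e-05, Spearman 0.92, p = 7e-05) and −0.89 for Spry1 (permutation p = 0.00054, Spearman −0.64, p = 0.0278). Of the 9 relations, 7 had an adjusted p under 0.05, all but those of Spred2 and Etv5. The 2 tumors farthest from the median of Dusp6 were plus-dox tumor 2 and off-dox tumor 4. Over the 10 tumors without them, r was 0.93 for Dusp5 (adjusted permutation p = 0.00369) and 0.77 for Spry2 (adjusted permutation p = 0.0492), and these 2 of 9 relations kept an adjusted p under 0.05. Before adjustment, 4 of 9 genes had a permutation p under 0.05 over the 10 tumors, against 9.76% of 14547 genes.

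For the other 5 genes with an adjusted p under 0.05 over 12 tumors, the adjusted p was above 0.05 without plus-dox tumor 2 and off-dox tumor 4. Over the 10 tumors, r was 0.65 for Dusp4, −0.64 for Spry1, 0.62 for Spry4, 0.59 for Etv4 and 0.31 for Spred1, with adjusted permutation p from 0.101 to 0.491, and the unadjusted permutation p was 0.0336 for Dusp4 and 0.0449 for Spry1. For Spred2 and Etv5 it was −0.059 and 0.0072. No-dox tumor 3, at 88.7 RPKM of Dusp6, also lay apart from the remaining 9 tumors, which were all under 70 RPKM. Within those 9 tumors, r was 0.83 for Dusp5 (exact permutation p = 0.0051), 0.89 for Spry2 (exact permutation p = 0.000267), 0.65 for Spry4 (exact permutation p = 0.0469) and −0.29 for Spry1 (exact permutation p = 0.455), all before adjustment.

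**Figure D4:**
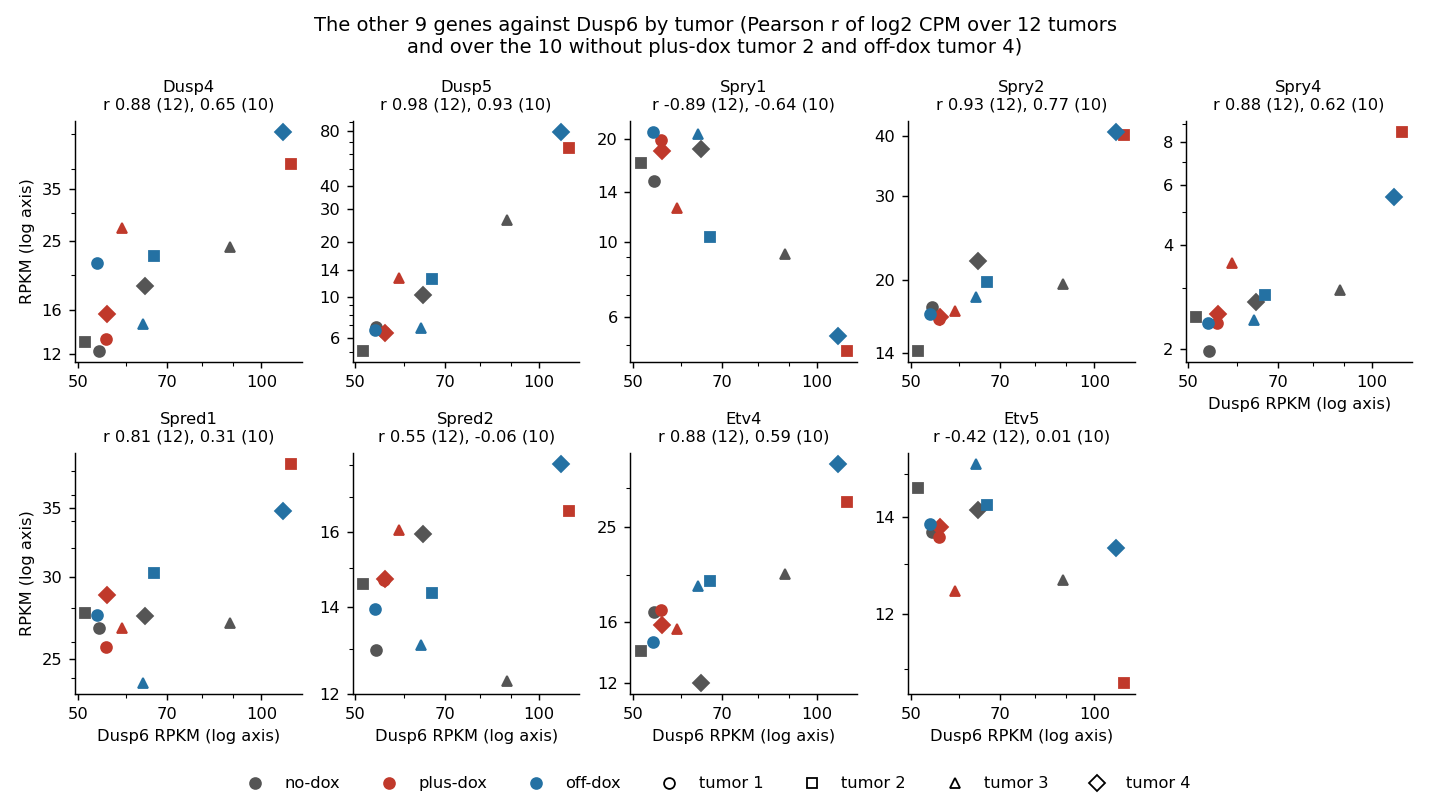
RPKM of the other 9 genes (vertical, log axis) against RPKM of Dusp6 (horizontal, log axis) in 12 tumors, with Pearson r of log2 CPM over 12 tumors and over the 10 without plus-dox tumor 2 and off-dox tumor 4. Dusp5 follows Dusp6 at 0.98 and 0.93 and Spry1 runs against it at −0.89 and −0.64, while 9 tumors lie together under 70 RPKM of Dusp6.

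Markers of other cell types did not move alike in the 2 tumors. The mean log2 CPM of 10 epithelial markers was 7.31 to 8.34 in no-dox tumors, 4.70 to 7.85 with dox and 6.25 to 8.02 after its withdrawal, and 6 of the 10 were lowest in plus-dox tumor 2 and off-dox tumor 4. Krt8 was at 532 and 525 RPKM in them, inside the range of the other tumors, and Krt18 at 608 and 752. Of 8 endothelial markers, 3 were highest in the 2 tumors, with Cdh5 at 57.7 and 16.4 RPKM against 5.71 to 11.8. Pecam1 was at 22.7 RPKM in plus-dox tumor 2 and, at 12.005, inside its range of 8.35 to 13.5 in off-dox tumor 4. The mean log2 CPM of the endothelial list was 5.22 in plus-dox tumor 2, 4.42 in off-dox tumor 4 and 3.67 to 4.47 in the other 10. Fibroblast markers were highest in the 2 tumors for 2 of 8, with Col3a1 at 1096 RPKM and Col1a2 at 762 in plus-dox tumor 2, above the other tumors, and at 466 and 410 in off-dox tumor 4, inside their ranges. Of 7 macrophage markers, 0 were highest and 1 was lowest in both, namely Cd14 at 49.6 and 51.97 RPKM against 112 to 233, while Lyz2 was at 1643 and 1366 RPKM, inside its range of 1072 to 2462. Skeletal muscle and adipose markers (8 and 6 genes, with Acta1 and Mylpf and with Cfd and Fabp4 the most abundant) had 0 genes highest in both. Of 60 relations between a member and a marker list, 10 had an adjusted permutation p under 0.05 by Pearson r over 12 tumors. Among them were Etv4 with the epithelial list (r = −0.79) and Spry4 with the endothelial list (r = 0.87). Spearman correlations over 12 tumors gave adjusted permutation p of 0.0846 or more. Over the 10 other tumors, 0 of 60 passed by Pearson r, which was −0.62 for Etv4 and 0.51 for Spry4 with these lists. Between groups, edgeR called 1 gene of the 6 marker lists, the muscle gene Actn3, which rose between no-dox and off-dox tumors (log2 fold change 4.53, edgeR adjusted p = 0.088). DESeq2 called 5 markers for plus-dox against no-dox tumors (Krt8, Col1a1, Cdh5, Myh4 and Actn3), 6 for off-dox against no-dox tumors (Krt8, Lum, Myh4, Actn3, Ckm and Mylpf) and 0 for off-dox against plus-dox tumors, where 6 had an unadjusted p under 0.05 in DESeq2. In edgeR the log2 fold change of Krt8 was −0.74 in each dox-treated group over no-dox tumors (edgeR adjusted p = 0.32 for plus-dox and 0.12 for off-dox tumors). The part of these cell types in the members' levels was not tested.

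The genes whose pattern over 12 tumors was most like that of each member were found by Pearson r of log2 CPM among 14548 expressed genes. Dusp6 was most like F2r, Dusp5 and Hmga1 (r from 0.975 to 0.978), and its second most like gene was thus another member. Dusp5 was most like Dlg3, Ereg and Acsbg1 (r = 0.99 each), and Spry2 most like Hbegf, Leprotl1 and Mboat2 (r = 0.97 each). Ereg and Hbegf encode ligands of the EGF receptor. Hbegf was at 112 and 107 RPKM in plus-dox tumor 2 and off-dox tumor 4 against 25.1 to 48.2 in the others, and Ereg at 19.7 and 25.8 against 2.96 to 9.84. Dusp4 was most like Spsb1, Tnfrsf23 and Map4k5 (r from 0.964 to 0.965), Spry4 most like Pvrl1, Itga3 and Reps1 (r from 0.975 to 0.978), and Spry1 most like Ptger4, Rapgefl1 and Nfatc2 (r from 0.965 to 0.971). Spred1 was most like Camk2d, Ncs1 and Pgap1, Spred2 most like Ubqln2, Sec31a and Slc7a1, Etv4 most like Arap3, Tmem74 and Ptpdc1, and Etv5 most like Tceanc, Uty and Pdzk1, with the lowest r of these, 0.86 to 0.90. Over the 10 tumors without plus-dox tumor 2 and off-dox tumor 4, r of these genes with their members ran from 0.63 (Etv5 and Uty) to 0.96 (Dusp5 and Dlg3), and was 0.71 for Spry2 and Leprotl1.

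The windows before the start of 3 members are shown. Among the members, Dusp5 had the highest r with Dusp6 over 12 tumors, and Spry1 ran the other way. Each window is the 250 bases before the gene's start in mm9, 5′ to 3′ on the plus strand, from chr19:53603558-53603807, chr10:98725615-98725864 and chr3:37538622-37538871. In the GENCODE annotation Dusp5 starts at 53603599, inside its window, so that part of this window lies within the annotated gene. Capitals mark GGAA, the core that ETS factors bind, on either strand (GGAA or TTCC), and in Dusp5 also a CArG box, the site of serum response factor.
Dusp5: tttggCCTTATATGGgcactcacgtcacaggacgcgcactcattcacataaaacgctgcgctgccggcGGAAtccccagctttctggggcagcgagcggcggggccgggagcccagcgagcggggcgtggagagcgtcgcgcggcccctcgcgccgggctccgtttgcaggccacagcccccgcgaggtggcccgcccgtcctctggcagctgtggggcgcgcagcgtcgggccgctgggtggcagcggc
Dusp6: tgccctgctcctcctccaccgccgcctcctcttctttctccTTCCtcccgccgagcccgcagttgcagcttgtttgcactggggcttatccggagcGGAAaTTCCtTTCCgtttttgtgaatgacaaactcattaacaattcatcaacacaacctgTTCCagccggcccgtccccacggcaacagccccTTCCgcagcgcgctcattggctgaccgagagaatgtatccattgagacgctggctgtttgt
Spry1: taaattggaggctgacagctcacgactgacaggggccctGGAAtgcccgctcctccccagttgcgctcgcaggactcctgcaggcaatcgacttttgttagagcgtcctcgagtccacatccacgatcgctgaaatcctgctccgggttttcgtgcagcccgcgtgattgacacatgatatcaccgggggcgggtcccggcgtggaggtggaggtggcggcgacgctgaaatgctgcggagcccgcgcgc

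The window of Dusp6 held 6 GGAA matches, those of Dusp5 and Spry1 1 each, and 8 of the 10 members had at least 1, as did 92.7% of the 22630 windows of this length. The longer ETS form CCGGAA, which includes GGAA, was in 1 of 10 members (Spry4) and 15.2% of all windows, and the AP-1 motif TGACTCA in 0 of 10 members and 3.93% of all windows. The CArG box was in 1 of 10 members, Dusp5, and in 1.27% of all windows, and it was searched after the Dusp5 sequence had been read. A match describes the letters of the window, and binding was not measured. For Dusp4 the GENCODE start, 35870351, lies before the whole window, so that the window lies within the annotated gene. For Spry1, Spred1, Spred2, Etv4 and Etv5 that start lies inside the window, as for Dusp5. No exon of another gene of the GENCODE annotation overlapped the span of any of the 10 genes, so that reads from an overlapping or antisense gene of that annotation were not counted on them although the libraries carry no strand.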

How the data were processed

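Libraries of polyA RNA without strand information were made from 12 bulk tumors, and reads of 50 bp were aligned by the authors to mm9 (TopHat 1.4.1, Bowtie 0.12.8), who condensed RefSeq to 1 model per gene. The deposited expected counts are the base-wise coverage of exonic spans in reads, without normalization and not all whole, and the deposited RPKM values are scaled by exonic length and mapped reads. The authors called differences with DESeq2. How reads with several positions or duplicates were treated is not given in the sources used here.

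From there, counts were rounded and fitted with edgeR 4.0.16 (TMM, quasi-likelihood test in its legacy form, 1 fit of 3 groups, 17561 genes with at least 10 counts over the 12 tumors). Calls were limited to genes longer than 250 bp with a mean RPKM above 0.25, a change above 1.5-fold and an adjusted p (Benjamini-Hochberg) under 0.1. DESeq2 1.42.0 in R 4.3.3 was an alternative. Log2 CPM used TMM factors and a prior count of 2. Single genes were also compared by exact permutation tests, and correlations by 100000 permutations. Each member had 176 to 10267 counts in a tumor, so that counting error was small beside the spread between tumors. The scripts were tested on simulated data.

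The members and the pathway and marker lists were chosen with earlier results of these data known. Genes named are all members, Trp53, the 2 most abundant and any gene of each list called by edgeR or DESeq2, and the 3 genes most like each member. Erbb3, Fgfr2, Epha2, Fosl1, Dusp2, Spred3 and the immediate early genes were named after their values had been seen. Spry3 and Hras were not analysed here, and some genes of the cascade and an allele of the line are not reported here. Tumors with the same number did not deviate together (mean correlation −0.088 over 12 pairs and 14548 genes, 0.043 over 36 pairs with different numbers), so the fit has no replicate block. Replicates of a group differed well beyond sampling noise. Further alternatives were RLE normalization, other count filters, fits of 8 tumors, an adjusted p under 0.05, each tumor left out in turn, and the fit without plus-dox tumor 2 and off-dox tumor 4. The newer form of the quasi-likelihood fit and the relations with Dusp6 were added after seeing the data. Windows before the gene starts were read from the NCBIM37 genome, which is mm9, at the gene starts of the deposited files, and gene overlaps from GENCODE M1.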

Additional observations from a re-analysis of the deposited data

Results flagged for a closer look

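Of 30 sets of 4 tumors (10 genes in 3 groups), 7 held a tumor whose gap to its nearest neighbor, divided by the range of the group, was above the 95% critical value of Dixon's test. For normally distributed values chance gives about 1 in 20 such sets. The gaps were taken on RPKM, where a high tumor stands out more than on a log scale. The number of sets is thus not a measure of an excess over chance. All 7 were the highest tumor of their group, 4 times plus-dox tumor 2 and 3 times off-dox tumor 4. In plus-dox tumor 2 these were Dusp5 at 64.6, Dusp6 at 112, Spry2 at 40.2 and Etv4 at 28.1 RPKM. In off-dox tumor 4 they were Dusp5 at 79.6, Spry2 at 41.0 and Spry4 at 5.51 RPKM. The sets are not independent, since the genes of a tumor come from 1 library. The mean log2 CPM of the epithelial list was 4.70 in plus-dox tumor 2 and 6.25 in off-dox tumor 4, against 6.60 to 8.34 in the other 10, and its part was not tested.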

How the results depend on the processing

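For the 10 genes, 0 calls in each comparison held under every alternative run. These were DESeq2, RLE normalization, both count filters, fits of 8 tumors and the replicate block. They also included an adjusted p under 0.05, the newer form of the fit, and each tumor left out. Part of these results could not have differed. The stricter limit of 0.05 cannot add calls to a fit with 0, and DESeq2 gave no p for Dusp5. With the replicate block, 0 of all genes were called in every comparison. For plus-dox against no-dox tumors, every edgeR alternative called 0 of all genes, except for 3 without plus-dox tumor 1. In that comparison, 0 of 10 is thus not specific to the members. The direction of the 30 log2 fold changes was kept by every alternative that used all 12 tumors, or the 8 of a pair. Without plus-dox tumor 2 and off-dox tumor 4, 9 of 30 turned. Between plus-dox and no-dox tumors they became −0.50 for Dusp5, −0.19 for Dusp6, 0.17 for Spry1, −0.12 for Spry2 and −0.0075 for Spred1, and between off-dox and no-dox tumors −0.48 for Dusp5, −0.065 for Dusp6 and 0.23 for Spry1. Between off-dox and plus-dox tumors Spred1 became 0.019.

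With 1 tumor left out at a time, log2 fold changes between plus-dox and no-dox tumors ran from −0.49 to 1.65 for Dusp5, −0.19 to 0.35 for Dusp6, −0.31 to 0.17 for Spry1, −0.12 to 0.45 for Spry2 and −0.0035 to 0.23 for Spred1. Between off-dox and no-dox tumors they ran from −0.48 to 1.91 for Dusp5, −0.069 to 0.42 for Dusp6, −0.28 to 0.22 for Spry1 and −0.0030 to 0.21 for Spred2. Between off-dox and plus-dox tumors they ran from −0.32 to 0.57 for Dusp4, −1.39 to 1.67 for Dusp5, −0.20 to 0.40 for Dusp6, −0.22 to 0.33 for Spry1, −0.31 to 0.55 for Spry2, −0.74 to 0.25 for Spry4, −0.14 to 0.13 for Spred1, −0.17 to 0.021 for Spred2 and −0.11 to 0.47 for Etv4. Etv5 kept its direction in all of them.

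Counts over all genes moved more. Between off-dox and no-dox tumors the 235 genes of the reported fit became 615 with DESeq2, 122 without a count filter, 365 with 10 counts in every tumor, 3 in the fit of 8 tumors, 0 at an adjusted p under 0.05, 471 without plus-dox tumor 2 and off-dox tumor 4, and 0 to 789 with 1 tumor left out (789 without off-dox tumor 1, and 0 without tumor 1, 2 or 4 of the no-dox group, tumor 4 of the plus-dox group or any of the other 3 off-dox tumors). The replicate block gave 0 genes in every comparison, and same numbers were not shown to pair tumors. Between plus-dox and no-dox tumors DESeq2 called 128 genes and leaving out 1 tumor gave 0 to 3, and between off-dox and plus-dox tumors these were 6 and 0 to 1. In no-dox tumors alone 4 of the 10 genes kept their rank by RPKM. Of relations with marker lists by Pearson r, 0 remained past the threshold without plus-dox tumor 2 and off-dox tumor 4. The causes were not tested. With 4 tumors a group, the intervals of the variable genes do not exclude changes past 1.5-fold.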
